A study of Drosophila melanogaster with 6 samples.

Results

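The regions described here are the places along the Drosophila genome where DNA was methylated more by Ey-Dam, a fusion of the transcription factor Eyeless (Ey) with the bacterial DNA adenine methyltransferase Dam, than by Dam alone in medulla neuroblasts. They were chosen as all peaks of both Ey-Dam replicate lists, with the list of reproducible peaks and the list of overlapping peaks that go with them. Replicate 1 holds 1470 peaks and replicate 2 holds 1509, together 2979 of the 5895 peaks in the 4 replicate lists of the series. The reproducible list holds 984 peaks, and the list of overlaps holds 1185 pairs of replicate peaks.

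The series asked where Ey, and Su(H), through which Notch signalling reaches its target genes, sit near genes of the temporal cascade that patterns medulla neuroblasts. It holds 6 libraries, 2 each of Dam alone, Ey-Dam and Su(H)-Dam. Flies of all groups carried UAS-Dcr2, tubG80ts, a temperature-sensitive Gal80 over the balancer CyO, and SoxN-Gal4, which drives expression in medulla neuroblasts. The Dam-only flies carried UAS-Dam in addition, the Ey-Dam flies UAS-Ey-Dam and the Su(H)-Dam flies UAS-Su(H)-Dam, and both fusion transgenes were inserted at the same landing site. Eggs were laid at 25 °C over 8 hours and kept at 18 °C for 3 days, and the larvae were then held at 29 °C for 72 hours, which relieves the block by Gal80. Only optic lobes of climbing larvae were taken, from about 100 brains pooled for each library. Dam marks GATC sites in any cell that expresses it during the induction, so a peak sums over all neuroblasts, and any other cells, in which the driver was active. The files hold no levels of RNA, so the labelled cell type could not be checked by markers here.

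Ey is a Pax6 protein with a paired domain and a homeodomain, best known for switching on the eye program in imaginal discs. In the medulla it is one of a series of transcription factors that neuroblasts express in turn as they age, and it is needed for the step to the next factor, Sloppy paired. In DamID the fused Dam adds methyl groups to the adenine of GATC near the places the factor contacts, and the enzyme DpnI then cuts only methylated sites. The unit of measurement is therefore the stretch between neighbouring GATC sites, and a peak is a run of such fragments with a high log2 ratio of Ey-Dam over Dam alone.

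Sequence from the peaks with the highest scores is shown to give the kind of DNA they span. The Ey consensus that the study used has 5 invariant bases, which can be written CNNNTNANTG on 1 strand and CANTNANNNG on the other, with N for any base. For the 5 reproducible peaks with the highest mean of the replicate scores, the lines below give 61 bases of the dm6 forward strand around the match to this core that lies nearest the centre of the peak, with the 10 letters of the match in capitals.
E2f1 intron, chr3R:21643482-21643542: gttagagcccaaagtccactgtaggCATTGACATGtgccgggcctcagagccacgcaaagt
Spn28B to Cyp4d21, chr2L:7592496-7592556: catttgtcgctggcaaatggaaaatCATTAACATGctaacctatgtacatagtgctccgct
lncRNA:CR46200, chr3L:900751-900811: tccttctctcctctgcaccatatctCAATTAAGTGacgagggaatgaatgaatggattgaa
pyd, chr3R:8846674-8846734: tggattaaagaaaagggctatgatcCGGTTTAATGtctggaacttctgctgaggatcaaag
CG43402 to CG31928, chr2L:1470570-1470630: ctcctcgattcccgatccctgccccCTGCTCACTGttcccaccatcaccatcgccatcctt
The match lay 15 bp from the centre of the lncRNA:CR46200 peak and 586 bp from the centre of the peak between Spn28B and Cyp4d21, and these 5 peaks held between 2 and 24 matches each.

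The smallest reproducible peak, of 232 bp, shows what the resolution of the method is. It lies between genes, was called in replicate 2 with a score of 4.92 and had no peak in the replicate 1 list at an FDR under 0.01. Its 3 fragments are bounded by the GATC sites printed in capitals, of which the outermost are given whole, and it holds no match to the core.
3R intergenic, chr3R:30276149-30276384: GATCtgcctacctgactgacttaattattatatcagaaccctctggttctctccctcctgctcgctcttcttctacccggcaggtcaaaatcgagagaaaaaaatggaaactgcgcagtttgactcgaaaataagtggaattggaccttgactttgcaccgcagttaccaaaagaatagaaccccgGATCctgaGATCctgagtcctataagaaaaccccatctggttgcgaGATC
All 984 reproducible peaks and all peaks of both replicate lists begin and end at a GATC site of the reference.

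The core was only slightly denser inside Ey-Dam peaks than outside. Counted on both strands, it occurred 2.22 times per kb inside replicate 1 peaks, 2.21 times inside replicate 2 peaks and 2.20 times inside reproducible peaks, against 2.04 times per kb of the rest of the 6 arms in each case. The ratio was 1.09 in both replicates and 1.08 in the reproducible list, and in the Su(H)-Dam replicate lists it was 1.07 and 1.05. Of 1000 bp windows at the centres of reproducible peaks, 87.5% held a core, and so did 85.2% of all 133878 windows of that length along the arms. The core is short, so that a match is frequent anywhere and carries little information by itself. Some Ey sites that the study predicted and altered lack the A of this core, and such sites are not counted here. The whole consensus of the study, which is far rarer, was found in 5.08% of the windows at reproducible peaks, 4.76% at replicate 1 peaks and 3.84% at replicate 2 peaks, against 3.56% of all windows. Within a list the density of the core hardly followed the score, with a Spearman's rho of 0.03 over the 1470 peaks of replicate 1 and 0.05 over the 1509 of replicate 2, in which peaks of one list share their library. A match is a description of the letters and not a site shown to be bound.

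Scores differed in level between the replicates. The score is the value that the peak caller derived from the log2 ratios over a peak, and in replicate 1 it ran from 2.90 to 7.89 with a median of 5.14, while in replicate 2 it ran from 2.19 to 7.58 with a median of 4.42. Among the 1185 overlapping pairs the replicate 1 score was the higher in 941, or 79.4%, and the median difference of replicate 1 from replicate 2 was 0.68 with an SD of 0.76. The 2 scores lay over 2 units apart in 51 pairs. Scores are therefore compared here within a replicate, and the values of each are given side by side.

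Peaks with higher scores were found again more often. In replicate 1, with its peaks divided by score into 4 classes of equal size, 63.0% of the lowest class and 90.2% of the highest overlapped a peak of replicate 2. In replicate 2 the shares ran from 50.5% in the lowest class to 94.2% in the highest. For the reproducible list the contrast was wider, from 14.4% to 94.6% in replicate 1 and from 9.26% to 98.7% in replicate 2, although the score itself enters the reproducibility estimate, so that this order is partly built in.

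**Figure D1:**
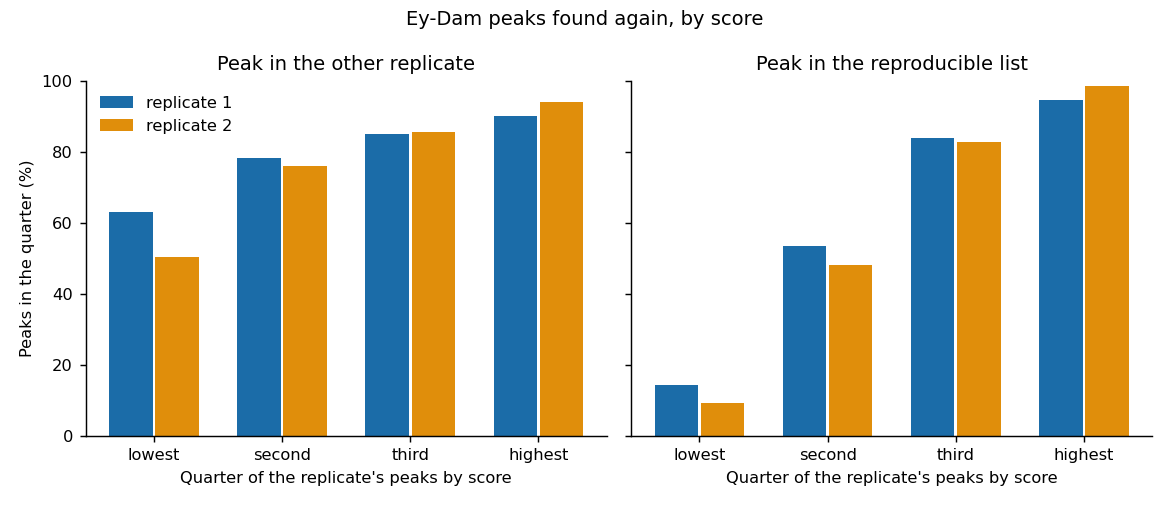
Share of Ey-Dam peaks (%) that overlap a peak of the other replicate (left) and a peak of the reproducible list (right), for 4 classes of equal size of a replicate's peaks by score, with 1 bar for each replicate and no error bar. Both shares rise from the lowest to the highest class, to 90.2% and 94.2% on the left and 94.6% and 98.7% on the right.

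The edges of the peaks often coincided, although they can fall only at GATC sites, which makes identical edges easier to reach. Of the 1185 pairs, 514 had the same first and the same last base in both replicates and 521 shared exactly 1 edge. By bases, the lists had 1.97 Mb in common, which was 70.3% of the bases of replicate 1 and 78.0% of those of replicate 2. Peaks without a partner had lower scores, with a median of 4.64 for the 307 of replicate 1 and 3.66 for the 353 of replicate 2, against 5.24 and 4.60 for peaks with a partner. In replicate 2 the unpaired peaks were also short, with a median of 904 bp against 1525.5 bp, and in replicate 1 these medians were 1543 and 1652 bp.

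Some of the highest peaks nevertheless stood in 1 replicate only. The second-highest score of replicate 1, 7.82, belonged to a peak of 3436 bp over the start of scro, which encodes an NK2 homeodomain factor of the medulla cascade, and the third-highest, 7.68, to a peak in an intron of jing, a zinc-finger gene. Neither overlapped a peak of replicate 2 at the same threshold, and both overlapped a reproducible peak. A 1130 bp peak near the start of N, the gene of the Notch receptor, scored 6.53 in replicate 1, was absent from replicate 2 and had no reproducible counterpart. Its FDR, 8.1e-03, was the weakest that any peak of replicate 1 had, as it spans only 3 fragments. In replicate 2 the highest unpaired peaks scored from 5.34 to 5.61 and lay beside comm2 and in hth, Hmx, numb, Lim3, Con, Egfr and the uncharacterised neighbours CG11790 and CG11791.

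The threshold acted on score and fragment number together. Peaks of 3 fragments, the fewest in either replicate list, needed a score of at least 4.66 in replicate 1 and 3.97 in replicate 2, while peaks of 10 or more fragments passed with scores down to 2.90 and 2.19. The median FDR was 8.1e-03 for 3-fragment peaks of replicate 1 and 9.6e-13 for those of 10 fragments or more. Just inside the threshold in replicate 1 stood a 737 bp peak in an intron of pan with a score of 6.02 and an FDR of 8.1e-03, and in replicate 2 a 592 bp peak at ex with a score of 4.99 and an FDR of 6.6e-03. Just outside it were peaks of the reproducible list, which was made from a looser call: 49 of the 984, or 4.98%, overlapped no peak at an FDR under 0.01 in either replicate. Another 53 had such a peak in replicate 1 alone, 57 in replicate 2 alone, and 825, or 83.8%, in both. The 49 had a median length of 1079 bp against 2005 bp for the 825.

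The reproducible list carries an IDR score in place of the peak score. This is a scaled negative log2 of the irreproducible discovery rate and is capped at 1000, and it ran from 862 to 1000 with 822 peaks at the cap, so it does not order most of the list. In the reproducible list of Su(H)-Dam it ran from 542 to 716. Reproducible Ey-Dam peaks are therefore ordered here by the mean of the best overlapping score in each replicate, which had a median of 5.18 over the 825 peaks with a value in both.

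Peaks ranged from runs of a few GATC fragments to tracts of many kb. The median length was 1621 bp in replicate 1, 1344 bp in replicate 2 and 1865.5 bp in the reproducible list, in which 925 of the 984 peaks span exactly from the outermost start to the outermost end of the replicate peaks they overlap. The median peak held 5 fragments in each replicate. Together the peaks covered 2.80 Mb in replicate 1, 2.53 Mb in replicate 2 and 2.21 Mb in the reproducible list. By fragments this was 2.31% of the 373710 GATC fragments in replicate 1, 2.36% in replicate 2 and 1.83% in the reproducible list. The fragments inside peaks were longer than the others by the median, at 249 bp in replicate 1 and 218 bp in replicate 2 against 196 bp outside, but shorter by the mean, at 326 and 287 bp against 360.0 and 361 bp. The GC content was close to that of the arms, with a median of 42.5% in replicate 1 and 43.1% in replicate 2 against 42.2% over all bases.

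The 6 longest reproducible peaks spanned from 9338 to 15012 bp, and 3 of them held no gene within 1000 bp. The longest in each list, 14895 bp with a score of 5.67 in replicate 1 and 15013 bp with a score of 4.59 in replicate 2, lay on X. It overlapped lncRNA:CR34052 and part of Raf, the MAP kinase kinase kinase of receptor tyrosine kinase signalling. A peak of 11223 bp in the reproducible list ended 1707 bp from dmrt99B, a doublesex-related gene, with scores of 6.23 and 5.51. Another of 9658 bp covered Oli, which encodes a bHLH factor, with 4 non-coding genes around it, and scored 5.53 and 4.41. The others were a tract upstream of SoxN, a peak of 9378 bp in simj with 5.82 and 4.10, and a tract between CG43402 and CG31928. Longer peaks had higher scores within each replicate, with medians of 4.83 and 5.68 in the shortest and the longest of 4 equal classes of replicate 1 and of 4.23 and 4.81 in those of replicate 2.

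The peak with the highest mean score lay in an intron of E2f1, the transcription factor that drives entry into S phase. It spanned 3881 bp and 15 fragments, and its centre was 16841 bp inside the gene. The scores there, 7.34 in replicate 1 and 7.58 in replicate 2, stood above 99.4% and 99.9% of the peaks of the same list. The next peaks were of several kinds. Intronic ones lay in pyd, a ZO-1 relative of cell junctions, with 7.18 and 6.43, and in Ets65A, an ETS-domain gene, with 6.74 and 6.42. A peak of 7792 bp within hng3 covered the start of emc, whose product is an inhibitor of bHLH factors, and of a tRNA gene, and scored 7.17 and 6.05. The peak with the highest score of replicate 1, 7.89 at lncRNA:CR46200 on 3L, had 5.73 in replicate 2, which stood above 94.8% of that list.

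Of the 10 peaks with the highest mean score, 6 had their centre between genes, where 39.2% of all reproducible peaks had theirs, and the nearest start of a protein-coding gene was 2102 to 21967 bp from these centres. A tract of 9338 bp on 2L, 21827 bp from CG43402 and 17297 bp from CG31928, scored 7.30 and 6.03 and held 22 fragments. The peak on 2L between Spn28B and Cyp4d21 scored 7.55 and 6.20 over 4 fragments. A peak on 3R lay 1618 bp from Fer2LCH, a ferritin subunit gene, with 6.77 and 6.39, and a peak over lncRNA:CR45388, 3472 bp from the citrate transporter gene Indy, had 6.61 and 6.69. Another in reach of CG5103 scored 7.16 and 5.96. High scores in replicate 1 were also found in an intron of sbb, at 7.65, and in replicate 2 at CG3841, at 6.55, and in an intron of Pura, at 6.47.

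Seen over all peaks, Ey-Dam lay in introns and between genes and was rare in coding sequence. Centres of peaks fell in introns for 47.8% of replicate 1, 46.1% of replicate 2 and 47.7% of the reproducible list, and between genes for 36.9%, 35.8% and 39.2%. Of the bases of the 6 arms, 42.7% are intronic and 30.5% intergenic. Coding sequence held 4.08% of the centres in replicate 1, 4.71% in replicate 2 and 2.85% in the reproducible list, although it makes up 16.7% of the bases and 29.9% of the centres of all GATC fragments. The 3 prime UTRs held 1.70%, 1.86% and 1.22% against 4.94% of bases, and the 5 prime UTRs held more than their share, 6.87%, 7.89% and 5.89% against 3.38%. Peaks centred in coding sequence also had the lowest median score, 4.58 against 5.17 for intronic ones in replicate 1 and 4.17 against 4.44 in replicate 2. Peaks and bases of 1 library are not independent draws, so these shares are descriptions and carry no test.

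**Figure D2:**
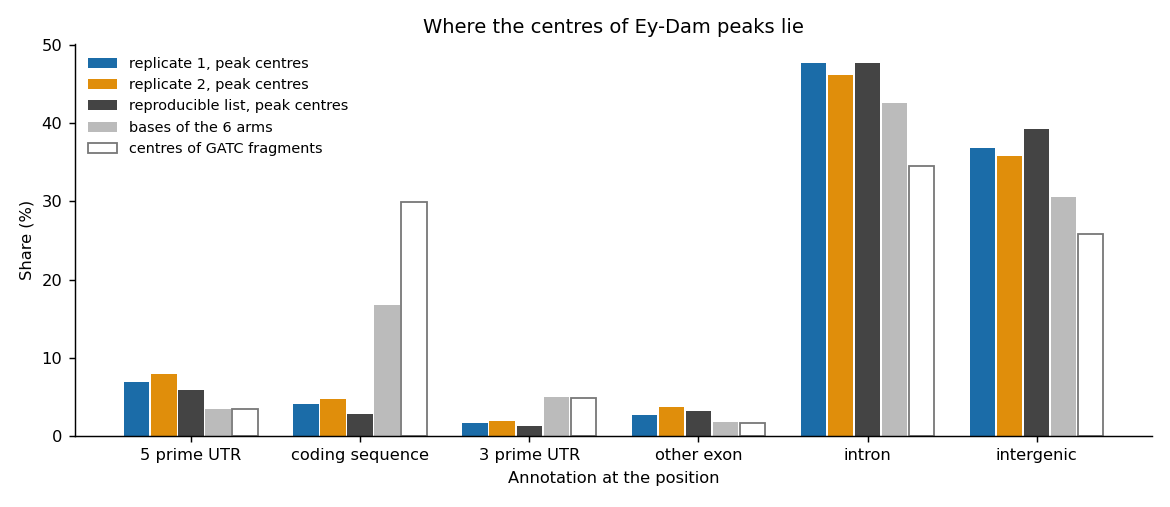
Share (%) of Ey-Dam peak centres in each class of annotation for both replicates and the reproducible list, beside the share of the bases of the 6 arms and of the centres of all GATC fragments, with no error bars. Coding sequence holds 2.85% to 4.71% of peak centres but 16.7% of bases and 29.9% of fragment centres.

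Most peaks covered no gene start. A start lay inside 370 peaks of replicate 1, or 25.2%, inside 355 of replicate 2, or 23.5%, and inside 255 of the reproducible list, or 25.9%. Of starts of protein-coding genes alone, 16.9% of reproducible peaks covered at least 1. Within the peaks there were 181 starts per Mb in replicate 1, 190 in replicate 2 and 159 in the reproducible list, and along the arms there were 136 per Mb. The centre of a peak lay at a median of 2831 bp, 2847 bp and 3123.5 bp from the nearest start in the same order, against 4162.5 bp for points placed at every 1000 bp of the arms. More than 10 kb separated the centre from any start for 285 peaks of replicate 1, 281 of replicate 2 and 199 of the reproducible list, which was 19.4%, 18.6% and 20.2% of them against 28.2% of the points. Of the centres within 500 bp of a start in replicate 1, 113 lay upstream and 134 downstream, and in replicate 2 these were 120 and 147.

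All arms carried peaks, and X the fewest for its length in the reproducible list. There the density was 5.69 per Mb on X, 6.92 on 2R, 7.20 on 3R, 7.91 on 2L, 8.68 on 3L and 10.4 on chromosome 4. In the replicate lists X had 9.68 and 11.0 per Mb against 10.5 to 12.3 and 11.1 to 11.6 on the other large arms. Chromosome 4, on which ey itself lies, carried 23 peaks in replicate 1, 16 in replicate 2 and 14 in the reproducible list. Its density over that of the other arms was 1.56 in replicate 1 but 1.05 in replicate 2, and 1.42 in the reproducible list. Among the 413 higher-scored peaks found in both replicates it was 0.719, which rests on fewer peaks still. The direction thus depended on the list, with few peaks on this chromosome in each. Peaks on X were also short, with a median of 1409.5 bp in replicate 1 and 1164 bp in replicate 2 against 1547.5 to 1872 bp and 1351 to 1637 bp on the other arms and chromosome 4.

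**Figure D3:**
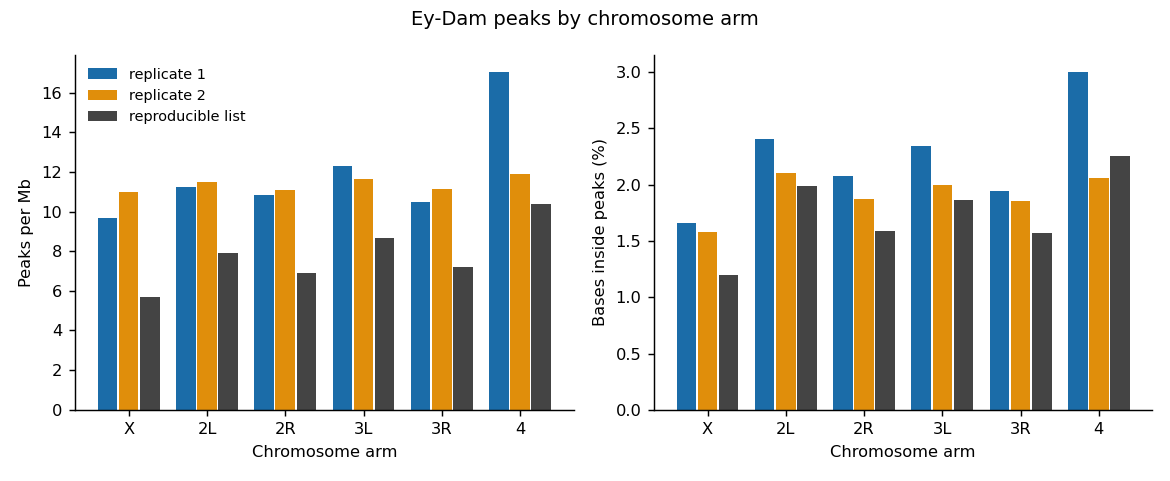
Ey-Dam peaks per Mb (left) and share of bases inside peaks in % (right) for each chromosome arm, with 1 bar for each replicate and 1 for the reproducible list and no error bars. Chromosome 4 stands at 17.1 peaks per Mb in replicate 1 and 11.9 in replicate 2, and X is lowest in the reproducible list with 5.69.

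Ends of the arms near the centromeres had long stretches without a called peak. The lists do not hold the reads, so how well these stretches were covered is not known here. In 7 stretches longer than 1 Mb neither replicate had a peak, and together they made up 17.4 Mb with 482 genes and 52345 GATC fragments, 14.0% of all fragments of the arms. The first 4545 kb of 2R, the first 4282 kb of 3R and the last 3336 kb of 3L were among them. Only 1 of the 7 lay well inside an arm, a stretch of 1095 kb on 3R with 173 genes. Su(H)-Dam, which may share the Dam-only controls, had from 0 to 3 peaks in each of the 7 in either replicate. At the other extreme, a window of 200 kb on 3L held 12 reproducible peaks, where the median window held 1 and 292 of the 672 windows held none.

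Peaks came in runs. With neighbours joined across gaps of at most 5000 bp, 329 peaks of replicate 1, or 22.4%, stood in 84 clusters of 3 or more, 319 of replicate 2, or 21.1%, in 82, and 166 of the reproducible list, or 16.9%, in 46. Peaks in clusters were more often intergenic, with 50.5% of centres between genes in replicate 1 and 47.3% in replicate 2 against 33.0% and 32.7% outside clusters. Their median scores were 5.26 and 4.60, against 5.10 and 4.38. In 8 of the 46 reproducible clusters no gene was annotated under the whole span.

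The cluster with the most reproducible peaks filled the space upstream of SoxN, which encodes a Sox family factor of neural progenitors and gives its name to the Gal4 driver of all 3 groups. It held 7 peaks over 37.6 kb, began 3456 bp from CG42710 and ended 2050 bp from SoxN, and peaks covered 84.9% of it. Their scores in replicate 1 ran from 5.15 to 7.02 and those in replicate 2 from 3.77 to 6.47. The highest of replicate 2, 6.47, belonged to a peak of 4453 bp centred 13325 bp from the start of SoxN. In replicate 2 the same space was split into runs of 4 and 3 peaks. A further cluster of 3 reproducible peaks began 1826 bp beyond the other end of the gene. SoxN itself had no peak within 1000 bp, so a count by that distance passes over the whole run.

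The cluster next in size began 419 bp upstream of stg, the Cdc25 phosphatase gene that lets cells enter mitosis. Its 6 reproducible peaks reached 19.4 kb upstream of stg and covered the uncharacterised gene CG45544. All 6 had a peak in both replicates, with scores from 5.20 to 6.63 in replicate 1 and from 4.93 to 5.98 in replicate 2. In replicate 2 the run went on with further peaks to a total of 10 over 28.1 kb.

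Runs of 5 reproducible peaks lay at erm, opa and E2f1 and over lncRNA:CR44189. The run at erm, a zinc-finger gene of the medulla cascade, went from 2.2 kb upstream of its start to 17.7 kb inside it, with replicate 1 scores from 5.15 to 6.44 and replicate 2 scores from 3.69 to 5.37 at the 4 peaks that replicate 2 also had. At opa, the Zic-related gene of the cascade, it went from 8.4 kb upstream to 11.8 kb downstream of the start, and the peak farthest upstream scored highest, at 7.02 and 5.88. At E2f1 the peaks covered 95.0% of 11.5 kb within the gene. The run at lncRNA:CR44189 began 7967 bp past drl, which encodes a Ryk-family Wnt receptor, and had lower scores, up to 5.36 and 4.52. A run of 4 lay upstream of wor, a Snail-family gene that marks neuroblasts, and reached within 438 bp of it with scores from 5.53 to 6.37 and from 5.33 to 6.32. Runs of 4 lay at ey and at eya too, each from about 3 kb upstream of the start to about 12 kb downstream.

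The replicate lists had still denser runs where the reproducible list thinned out. Around slp1 and slp2, the Sloppy paired genes, replicate 1 had 12 peaks over 29.96 kb and replicate 2 had 12 over 34.9 kb, while the reproducible list had 8 in those spans. In the Enhancer of split complex, whose bHLH genes respond to Notch, replicate 1 had 9 peaks over 29.1 kb and replicate 2 had 11 over 30.9 kb, with 4 reproducible peaks in each span.

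Of the 18164 annotated genes, 1006, or 5.54%, had a reproducible peak within 1000 bp. Replicate 1 marked 1459 genes, 8.03%, and replicate 2 marked 1442, 7.94%. No gene lay within that distance of 206 reproducible peaks, or 20.9%, while 302 reached 2 or more genes. Among the genes with a peak 857 had 1 reproducible peak, 104 had 2, 25 had 3 and 20 had 4 or more, the last being 0.11% of genes. The number depended strongly on the list, as 42 genes had 4 or more peaks in replicate 1 and 41 in replicate 2.

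Above 1 kb, longer genes had peaks more often. The share of genes with a reproducible peak was 4.27% up to 1 kb, 2.98% at lengths of 1 to 2 kb, 11.8% at 10 to 20 kb and 33.7% above 100 kb, and in the replicates it went from 6.19% and 5.61% over 4.64% and 4.62% to 43.8% in both. The median length was 3800.5 bp for genes with a reproducible peak and 1611 bp for the others. Counted per 10 kb of gene and flanks, however, peaks were fewer in the longest class, 0.052 against 0.093 at 10 to 20 kb, and the same order held in replicate 1, with 0.081 against 0.146, and in replicate 2, with 0.086 against 0.148.

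Of the 20 genes with 4 or more reproducible peaks, 19 are protein coding. The most peaks, 9, were at lncRNA:CR44357, a non-coding gene of 239347 bp on X that overlaps Cph, the BCL11-like zinc-finger gene with 7, so that both count some of the same peaks. The gene jing had 8 reproducible peaks, and 12 and 14 in the replicates, with best scores of 7.68 and 5.68. Mur2B had 7 and the overlapping br, an ecdysone-induced BTB zinc-finger gene of late neuroblasts, had 6. E2f1 had 6 and erm had 5. Those with 4 included ey itself, eya, which encodes a phosphatase and cofactor of the eye program, brat, a translational repressor that limits neuroblast number, and Syp, an RNA-binding protein of late neuroblasts. Also among them were the Wnt receptor gene fz2 and the Wnt effector gene pan, neur, a ubiquitin ligase gene of Notch signalling, opa, lov, Tet, tna, SKIP and CG32816. Only opa, neur and eya of the 20 were shorter than 20 kb. The UAS-Ey-Dam transgene holds the coding sequence of ey, which UAS-Dam lacks, and whether it adds to the peaks at ey was not tested.

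Density was ranked among genes with 3 or more reproducible peaks, since a short gene with 1 peak is dense by its length alone. At 3 peaks in the 437 bp of lncRNA:CR46056 and its flanks the density was 12.3 per 10 kb, although this gene lies within E2f1 and shares its peaks. CG9837 had 3.80 per 10 kb and was covered by peaks over 98.3% of its 5901 bp. Next in this ranking came erm with 2.26, opa with 2.09 and Diap1, the inhibitor of apoptosis, with 2.05. Peaks covered 47.7%, 52.1% and 57.1% of these genes.

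Of the gene lists chosen for the tissue, those of neuroblasts held the highest share of genes with a peak. Of 20 neuroblast genes, 18 had a reproducible peak within 1000 bp and 19 a peak in each replicate, and of 15 medulla temporal factors 10 had a reproducible peak and 11 a peak in each replicate, where 5.54% of all genes had a reproducible one. The median lengths of these lists were 27367 and 5801 bp, and long genes have peaks more often, as described above. Numbers of reproducible peaks per 10 kb of gene and flanks, which take length into account, were 0.593 and 0.739, against 0.052 to 0.182 in the classes of all genes by length. These lists were drawn up with earlier results from the same peaks known, so their counts are no independent evidence.

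Neuroblast genes with the most reproducible peaks were br with 6, brat and Syp with 4, and pros and numb, which set the fate of the daughter cell, with 3. The best scores at Syp were 6.88 in replicate 1 and 5.91 in replicate 2, and at numb 6.68 and 5.56. The proneural genes ac and l(1)sc were the exceptions: ac had no peak in any list, and l(1)sc had 1 in each replicate, with 4.93 and 3.47, but none that was reproducible. Among temporal factors erm, ey and opa led with 5, 4 and 4, and hth, the first of the cascade, had 3 over its 132008 bp. Within 1000 bp, B-H1, B-H2 and SoxN had none in any list, dmrt99B had 1 peak in each replicate, with 4.43 and 4.14, and tll had 1 in replicate 2 with 4.07. The reproducible peak of 11223 bp near dmrt99B, with 6.23 and 5.51, ended 1707 bp from it and so was not counted. At a distance of 5000 bp, 93.3% of the temporal factors had a reproducible peak, as did 1806 of all 18164 genes.

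The network that Ey is known for in the eye was marked in part. Of 13 retinal determination genes, 7 had a reproducible peak and 8 a peak in each replicate, which was 53.8% and 61.5% against 5.54% of all genes and 8.03% and 7.94% in the replicates. Of all genes of 10 to 20 kb, which holds the median length of the list, 11.8% had a reproducible peak. Besides ey and eya with 4 and hth with 3, Optix, a Six-family homeodomain gene, had 2 and best scores of 6.03 and 6.33, and tsh and dan had 1. At danr, the neighbour of dan, each replicate had 1 peak, with 4.53 and 4.35, that was not reproducible. At so, the Six-family partner of eya in flies, there was 1 reproducible peak, with a score of 3.24 in replicate 2 and no peak in replicate 1. No list had a peak at dac, eyg, toe or tio, and toy, the Pax6 paralog of ey, had 1 in replicate 1 alone, at 3.64.

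Phototransduction genes, which act at the end of photoreceptor differentiation, had shares above those of all genes but from few members. Of 21, inaD and Arr2 had a reproducible peak, which was 9.52% against 5.54% of all genes, and 4 had a peak in replicate 1 and 3 in replicate 2, or 19.05% and 14.3% against 8.03% and 7.94%. Of all genes of 5 to 10 kb, the class that holds the median length of the list, 6.89% had a reproducible peak and 10.3% and 10.8% a peak in the replicates. Peaks at inaD, a scaffold of the phototransduction complex, scored 6.26 and 4.94, and those at Arr2, an arrestin gene, 4.53 and 4.81. Among the rhodopsin genes only Rh5 had a peak, in replicate 1 with 4.18, and ninaE, Rh2, Rh3, Rh4 and Rh6 had none in any list.

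Genes of mature neurons are long. Their shares were near those of all genes of like length in the replicates and lower in the reproducible list. Of 16 synapse and neuron genes, elav and Gad1 had a reproducible peak, which was 12.5% at a median length of 23982 bp, where 21.3% of all genes of 20 to 50 kb had one. Each replicate marked 4, or 25.0%, against 28.3% and 26.4% of all genes of 20 to 50 kb. Per 10 kb of gene and flanks the list had 0.035 reproducible peaks, against 0.091 in that length class. At elav, the pan-neuronal RNA-binding gene, the scores were 5.50 and 3.17, and at Gad1, for GABA synthesis, 4.43 and 5.12. ChAT and VAChT, the nested genes of cholinergic neurons, had 1 weak peak in each replicate, 4.36 and 3.55, that both share. The channel genes para, Sh and cac had none in any list over 53808 to 138941 bp.

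Of 11 matched glial genes, 4 had a reproducible peak, namely Eaat1, pnt, loco and gcm, and 4 and 5 had a peak in the replicates. Among them pnt also stands in the neuroblast list and gcm in that of temporal factors, so both are counted there too. The reproducible share was 36.4% against 5.54% of all genes and 6.89% of those of 5 to 10 kb, which holds the median length of the list. In the replicates the shares were 36.4% and 45.5%, against 8.03% and 7.94% of all genes and 10.3% and 10.8% of that length class. At gcm, the switch gene of glial fate and also a factor of the last medulla stage, scores were 6.19 and 5.07. No list had a peak at repo, the homeodomain gene of differentiating glia, or at moody, Gs2, gcm2, wrapper and zyd. In a list of 15 genes of the neuroepithelium and lamina, from which medulla neuroblasts arise or beside which they lie, 7 had a reproducible peak, 7 a peak in replicate 1 and 10 in replicate 2. These were 46.7%, 46.7% and 66.7%, against 5.54%, 8.03% and 7.94% of all genes and 11.8%, 17.5% and 16.8% of those of 10 to 20 kb. They included eya, Optix, so and gcm from the lists above, and sim, a bHLH-PAS gene, with best scores of 4.70 and 4.12. No peak lay at shg, crb, hh, wg or dac.

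In 2 lists of genes unrelated to the tissue the reproducible shares were near or below that of all genes. The ribosomal share was nevertheless above that of genes of like length. Of 30 eggshell, yolk, salivary gland, muscle, fat body and gut genes, only the glue gene Sgs5, or 3.33%, had a peak, in all 3 lists and with 5.27 and 5.22. Of 88 genes named as cytoplasmic ribosomal proteins, 5 had a reproducible peak, 5.68%, against 5.54% of all genes. In the replicates 8 and 7 had a peak, 9.09% and 7.95% against 8.03% and 7.94%. Of all genes of 1 to 2 kb, which holds the median length of both lists, 2.98% had a reproducible peak and 4.64% and 4.62% a peak in the replicates. Reproducible peaks per 10 kb numbered 0.164 for the ribosomal list and 0.066 for the other, against 0.091 in that length class. The 5 ribosomal genes were RpL23A, RpL39, RpL4, RpS9 and RpS20, and of them only RpS20 was overlapped by the peak itself.

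**Figure D4:**
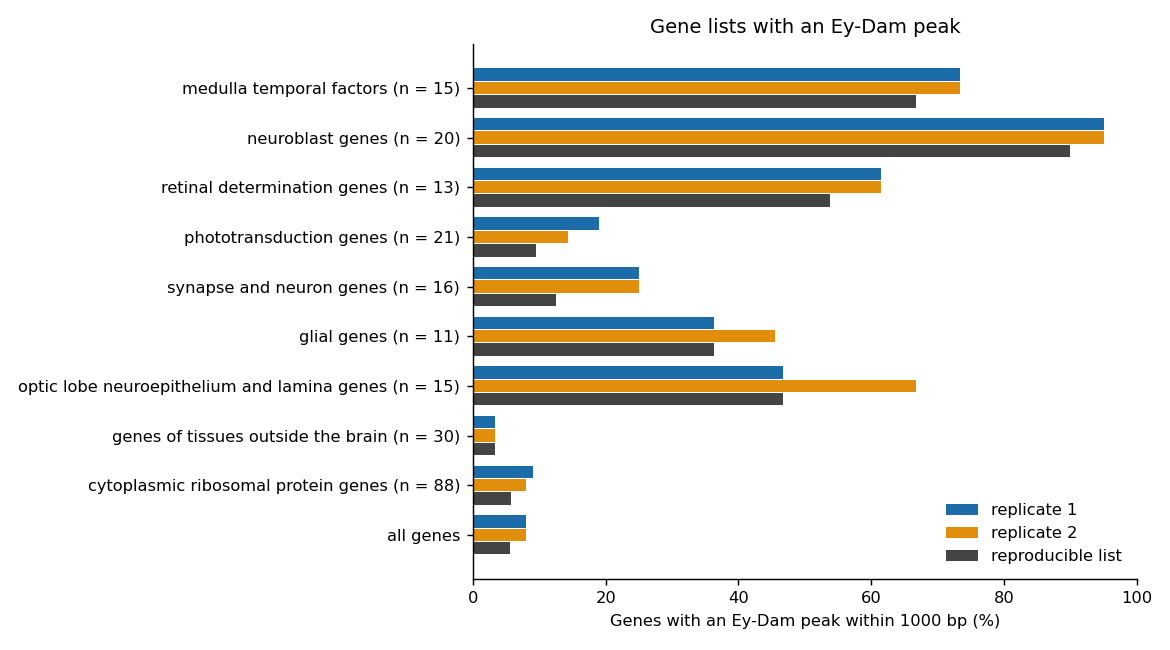
Share (%) of each gene list with an Ey-Dam peak within 1000 bp, for both replicates and the reproducible list, with all 18164 genes at the bottom, the number of genes matched to the annotation beside each list and no error bars. Neuroblast genes stand highest, 90.0% in the reproducible list, and all genes stand at 5.54%.

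Ey-Dam lists were set beside the Su(H)-Dam lists, which come from the same driver and stage and may share the Dam-only controls. With 2 replicate lists for each, an exact permutation test over the 4 lists, two-sided, cannot give a p below 0.333, so no difference can pass 0.05. The median score was higher for Ey-Dam, with 5.14 and 4.42 against 3.22 and 2.96 for Su(H)-Dam, and the ranges did not overlap (difference of means 1.69, exact permutation p = 0.333). Scores differed in level even between replicates of 1 fusion, so this gap describes score levels and not strength of binding. Shares of peaks in clusters were lower for Ey-Dam, 22.4% and 21.1% against 25.6% and 23.5% (exact permutation p = 0.333). The ranges were also apart, at the same p, for the share of peaks on 2R, with 18.6% and 18.6% against 16.2% and 16.9%, for the share on X, with 15.5% and 17.2% against 17.8% and 18.6%, and for the density of the core, with 2.22 and 2.21 per kb against 2.17 and 2.15. The ranges overlapped for median length, with 1621 and 1344 bp against 1428 and 1333 bp (exact p = 0.667), for the share on chromosome 4, with 1.56% and 1.06% against 1.51% and 0.89% (exact p = 0.667), for the share centred in introns, with 47.8% and 46.1% against 46.9% and 45.4% (exact p = 0.667), and for the share covering a gene start, with 25.2% and 23.5% against 24.3% and 23.5% (exact p = 1). The methods of the study describe the 2 libraries of a group as biological replicates, each from its own pool of brains.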

How the data were processed

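DamID-seq was done on 2 libraries each of Dam alone, Ey-Dam and Su(H)-Dam. Reads were mapped by the authors with Bowtie2 (build dm6), who computed log2 ratios of fusion over Dam alone per GATC fragment with damidseq_pipeline, called peaks with find_peaks and ran IDR on a looser call. The Dam-only library that served each fusion library is not given in the sources used here, and the deposited lists do not hold the reads behind each peak, so the depth of a value is not reported here. The deposited lists hold the authors' peak score, with an FDR under 0.01 for each replicate, and the IDR score of the reproducible list, at an IDR of at most 0.05. No score was rescaled, and no per-sample column was left out. The deposited list of overlaps has the same 1185 pairs that were computed here from the replicate lists.

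Genes came from Ensembl release 115. On the 6 arms, 18164 genes remain once transposon insertions are dropped, and 13945 encode proteins. Sequence came from Release 6 of the genome, whose coordinates are those of dm6. Scripts used scipy 1.17.1, pandas 2.3.3, numpy 2.4.6 and matplotlib 3.10.9 under Python 3.11.15. Peaks overlap when they share at least 1 bp. A gene has a peak within 1000 bp of it. Clusters are 3 or more peaks with gaps of at most 5000 bp. Where classes overlap, a base is counted first as 5 prime UTR, coding, 3 prime UTR, other exon and then intron. The start of a gene is the 5 prime end of its annotated span.

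The methods recovered planted overlaps, clusters, gene counts and motifs in simulated data. Named genes are those at the highest, longest and most clustered peaks, those with the most peaks and up to 4 of each list by score, and all others were named after their values were seen. The members and lists were chosen with earlier results of these data known. 1 glial gene of the list was not matched to the annotation. Alternatives were each replicate alone, the higher-scored peaks found in both replicates, other distances, gaps and overlaps, protein-coding genes only, and the whole consensus in place of its core.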

Additional observations from a re-analysis of the deposited data

How the results depend on the processing

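With a single replicate list in place of the reproducible one, the median length was 1344 to 1621 bp, the density on chromosome 4 over the other arms 1.05 to 1.56, the share covering a start 23.5% to 25.2%, the share centred in introns 46.1% to 47.8%, the share in clusters 21.1% to 22.4%, the genes with a peak 1442 to 1459, those with at least 4 peaks 41 to 42, and the core ratio 1.09 in each. Among the 413 peaks at or above the median score of the 825 found in both replicates, chromosome 4 stood at 0.719, starts at 23.2%, clusters at 10.4%, genes with a peak at 431, genes with at least 4 at 3 and the core ratio at 1.11. Of replicate 2 peaks, 76.6% overlapped replicate 1, and between the peaks at or above the median score of each replicate 65.2% of replicate 1 peaks had a partner. A start lay within 1000 bp of 39.8% of reproducible peaks, and a protein-coding start inside 16.9%. Clusters held 9.25% of peaks at gaps up to 2000 bp and 26.8% at gaps up to 10000 bp. Within 5000 bp of a peak there were 1806 genes, and 33 with at least 4 peaks. The whole consensus was 1.27 times as dense inside reproducible peaks as outside. Of the alternative values for these results, 13 stayed within the spread of the replicates, or for counts within 1.5 times, and 26 moved further. The cause of these moves was not tested.

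The replicate block was added after seeing the data: with Ey-Dam and Su(H)-Dam lists of the same number treated as a pair, the exact test cannot give a p below 0.5, the difference in median score was again 1.69 (exact p = 0.5), and the call of none of the 9 measures compared changed. Nothing in the labels ties equal numbers together beyond the number. Precision is limited by 2 replicates, by the length of GATC fragments and by peak lists without the profiles beneath them, so signal under the threshold at a gene without a peak is not seen here. The order of peaks within the reproducible list rests on scores of the replicates, since most of its own scores are at their cap.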
